A study of Homo sapiens with 6 samples.

Results

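The integrins outside the hemidesmosome were described from 10 genes, ITGA1, ITGA2, ITGA3, ITGA5, ITGA11, ITGAV, ITGB1, ITGB3, ITGB5 and ITGB8, taken by name from a count table of 58336 genes. All 10 passed the filter on low counts. The cells were SUM159, a human line of triple-negative breast cancer, separated by its level of ITGB4, the beta subunit of the hemidesmosome integrin. The groups were clones 1 and 3 labelled ITGB4-low and recovered from mouse lungs into which LM2 cells had been co-injected (n = 2), clone 1 recovered after bleomycin was given by the trachea (n = 1), ITGB4-high cells in culture (n = 1) and the same ITGB4-low clones kept in culture as control (n = 2). LM2 cells are descendants of MDA-MB-231 breast cancer cells selected for growth in the lung. Bleomycin injures lung tissue. Tumor cells reached the lung through the tail vein, and the dissociated lung was kept in a dish overnight before tdTomato-positive cells were sorted. The ITGB4-high and control cells never left the dish, so passage through the lung, sorting and the trigger cannot be told apart. LM2 cells are human too, and their separation from SUM159 cells rests on the sort. Each clone is 1 line, and clone 3 of the LM2 group rests on a sample title, since the treatment text names clone 1 alone.

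Integrins are cell surface receptors made of 1 alpha and 1 beta subunit, and the pair decides which matrix protein is bound. ITGB1 pairs with ITGA1, ITGA2 and ITGA11 to bind collagens, with ITGA3 to bind laminins and with ITGA5 to bind fibronectin. ITGAV pairs with ITGB3, ITGB5 or ITGB8 to bind proteins with an RGD motif, such as vitronectin and the latent form of TGF-beta. Ligand binding is passed inside through talin, kindlin and focal adhesion kinase.

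The libraries held 13607953 to 22222121 counts in all, and a floor of 3 counts corresponded to 0.138 to 0.232 CPM (counts scaled to 1e6 per library with TMM factors). Floors cover counting error only. Standard errors of fitted log2 fold changes come from the edgeR fits and include the spread between libraries. ITGB4 itself was at 305 to 470 CPM in the lung libraries and 383 CPM in ITGB4-high cells, against 24.6 and 25.9 CPM in control cells. The lung libraries carry the ITGB4-low label of the clones that were injected, but their ITGB4 level lay around that of the ITGB4-high library and not near the controls. The 6 markers of the line were VIM, EGFR, CD44, KRT8, KRT18 and ITGB4. Their summed level was 4715 to 4936 CPM in the lung libraries and 5307 CPM in ITGB4-high cells, against 4672 to 4918 CPM in control cells. This sum includes the ITGB4 levels given above, which differ between the groups, so it does not compare the line apart from ITGB4. VIM was at 2171 to 3075 CPM in the lung libraries and 3556 CPM in ITGB4-high cells, against 3325 and 3596 CPM in control cells. The summed level of 7 fibroblast and muscle markers was 76.2 to 479 CPM in the lung libraries and 179 CPM in ITGB4-high cells, against 84.2 to 92.6 CPM in control cells. PDGFRA was at 27.5 to 449 CPM in the lung libraries and 129.5 CPM in ITGB4-high cells, against 32.5 and 35.1 CPM in control cells, while LUM, DES and MYH11 were at or under 0.364 CPM in every library. PDGFRB went the other way, at 6.73 to 24.8 CPM in the lung libraries and 0.875 CPM in ITGB4-high cells, against 28.1 and 26.9 CPM in control cells. DCN was at 12.8 to 39.2 CPM in the lung libraries and 34.3 CPM in ITGB4-high cells, against 16.7 and 21.7 CPM in control cells. ACTA2 was at 8.51 to 15.5 CPM in the lung libraries and 13.3 CPM in ITGB4-high cells, against 6.57 and 8.45 CPM in control cells. The lung epithelial markers SFTPC, SFTPA1 and SCGB1A1, the endothelial markers CDH5 and CLDN5 and the myeloid markers AIF1 and TYROBP were at 0 in every lung library. Other markers of these lists stood above control in some lung libraries. PTPRC was at 2.32 CPM in LM2 clone 1 and 2.69 CPM in the bleomycin library, against 0.184 and 0.207 CPM in control cells. In the bleomycin library PECAM1 was at 9.41 CPM and CD68 at 1.60 CPM, against at most 2.02 and 0.505 CPM in control cells. ITGB2, also of the myeloid list, lay below both controls in LM2 clones 1 and 3, at 0.387 and 0.447 CPM. It was at 3.26 CPM in the bleomycin library and 0.0729 CPM in ITGB4-high cells, against 3.46 and 1.33 CPM in control cells. The summed level of 6 endothelial markers was 2.55 to 11.3 CPM in the lung libraries and 6.12 CPM in ITGB4-high cells, against 72.8 to 108 CPM, nearly all of it KDR, in control cells. That of 11 myeloid markers was 1.92 to 10.3 CPM in the lung libraries and 2.19 CPM in ITGB4-high cells, against 2.71 to 5.95 CPM in control cells, and that of 6 lung epithelial markers stayed at or under 6.43 CPM in every library. Of the lung epithelial list, AGER was at 2.87 to 3.79 CPM in the lung libraries and 2.48 CPM in ITGB4-high cells, against 2.28 and 1.79 CPM in control cells. NKX2-1 was at 0 to 1.40 CPM in the lung libraries and 0 CPM in ITGB4-high cells, against 4.08 and 3.90 CPM in control cells. The part of these markers in the results was not tested. The LM2 pair stood far apart and the control pair close together, since a chi-square test of the counts gave 80.1 per degree of freedom for LM2 and 8.67 for control.

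The 3 genes of the 10 with the widest range over the 6 libraries were alpha subunits that bind collagen. ITGA2 was higher in every lung library and in ITGB4-high cells than in both controls, and ITGA1 and ITGA11 were lower. ITGA2 (ENSG00000164171, GRCh38 chr5:52989326-53094779, plus strand) encodes the alpha subunit of the main collagen receptor of epithelial cells and platelets. ITGA1 (ENSG00000213949, chr5:52787896-52959210, plus strand) encodes the subunit that favours type IV collagen, and its gene ends 30115 bases before ITGA2 begins, on the same strand. ITGA11 (ENSG00000137809, chr15:68296533-68432162, minus strand) encodes the subunit that favours fibrillar collagen and is typical of fibroblasts. The 250 bases before the annotated RefSeq start of each of these 3 genes (GRCh38.p14) are shown because these neighbours and relatives differed in opposite directions. Windows are chr5:52787666-52787915 for ITGA1, chr5:52989102-52989351 for ITGA2 and chr15:68432164-68432413, minus strand, for ITGA11. Capitals mark GGGCGG (the GC box bound by SP1) in ITGA2 and CAGGTG (an E-box of the kind that ZEB proteins bind) in ITGA11.
ITGA1: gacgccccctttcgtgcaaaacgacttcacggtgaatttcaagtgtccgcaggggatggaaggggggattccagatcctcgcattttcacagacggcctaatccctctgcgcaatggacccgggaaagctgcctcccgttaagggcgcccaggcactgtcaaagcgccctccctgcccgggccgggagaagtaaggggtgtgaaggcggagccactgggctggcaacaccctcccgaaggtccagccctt
ITGA2: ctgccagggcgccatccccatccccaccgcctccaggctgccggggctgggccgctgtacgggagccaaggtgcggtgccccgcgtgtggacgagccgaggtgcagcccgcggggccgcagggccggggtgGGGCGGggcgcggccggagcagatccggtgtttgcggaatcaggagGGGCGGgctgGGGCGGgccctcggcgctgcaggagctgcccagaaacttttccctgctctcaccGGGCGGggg
ITGA11: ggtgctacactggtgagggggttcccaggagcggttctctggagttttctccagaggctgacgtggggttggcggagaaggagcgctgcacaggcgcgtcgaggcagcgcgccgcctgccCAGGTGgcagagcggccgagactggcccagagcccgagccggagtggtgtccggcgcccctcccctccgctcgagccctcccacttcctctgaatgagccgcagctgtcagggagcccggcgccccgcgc
The ITGA2 window held GGGCGG 4 times, starting 119, 73, 63 and 9 bases before the start, and the other printed windows held none on either strand. Among members not printed, the count was 1 for ITGA5, 2 for ITGB8 and 0 at each start of ITGAV. It was 3 and 0 at the listed starts of ITGB1, and 2, 0 and 3 at those of ITGB5. Of 35116 RefSeq windows of the same length, 42.6% held GGGCGG 1 or more times. The ITGA11 window held CAGGTG once, starting 130 bases before the start, a match found in 17.5% of all windows. TGACTCA, the AP-1 motif (4.20% of windows), and GGAATG, the TEAD motif (11.9%), were in none of the 3 windows. All matches were sought on both strands, and a match describes letters and not a bound site. GC content was 62.0% in the ITGA1 window, 76.4% in that of ITGA2 and 71.2% in that of ITGA11, against a median of 58.0% over all windows.

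ITGA2 was at 869 CPM (clone 1) and 191 CPM (clone 3) in the LM2 libraries, 506 CPM in the bleomycin library and 965 CPM in ITGB4-high cells, against 72.3 CPM in each control. All 4 libraries lay above both controls, and the LM2 clone 3 library was the nearest to them. Against the control of its own clone, ITGA2 was 12.0-fold higher in clone 1 and 2.63-fold higher in clone 3 with LM2, and 6.98-fold higher in clone 1 with bleomycin. The lung libraries averaged 522 ± 339 CPM (SD, n = 3) and the controls 72.3 ± 0.0138 CPM (SD, n = 2). The fitted log2 fold change was 2.85 with a standard error of 0.64, a 7.21-fold difference that did not pass the threshold of 0.05 (edgeR adjusted p = 0.11, unadjusted p = 0.00424). For ITGB4-high cells over control it was 3.74 with a standard error of 0.84, which did not pass either (edgeR adjusted p = 0.0996).

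ITGA1 was at 9.13 and 32.3 CPM in clones 1 and 3 with LM2, 21.0 CPM in the bleomycin library and 22.3 CPM in ITGB4-high cells, against 70.8 and 74.5 CPM in control clones 1 and 3. Each of these libraries lay below both controls, and LM2 clone 1, with the most ITGA2 of the lung libraries, had the least ITGA1. Fitted log2 fold changes were -1.80 (SE 0.46, edgeR adjusted p = 0.136) for all lung libraries over control and -1.70 (SE 0.76, adjusted p = 0.252) for ITGB4-high cells over control. PELO shares 475 exon bases with ITGA1 on the same strand and was at 48.7 to 89.4 CPM, so reads from those bases may have been lost or given to either gene. The 57 tested genes within 10 Mb of ITGA1 lay near 0, with a median log2 ratio that ran from -0.07 to -0.04 in the lung libraries and was -0.16 in ITGB4-high cells.

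ITGA11 was at 5.65 and 11.2 CPM in clones 1 and 3 with LM2, 12.2 CPM in the bleomycin library and 2.11 CPM in ITGB4-high cells, against 42.7 and 48.7 CPM in control clones 1 and 3. The groups did not overlap, and ITGB4-high cells, with 29 counts, had the least. The lung libraries averaged 9.66 ± 3.51 CPM (SD, n = 3) and the controls 45.7 ± 4.25 CPM (SD, n = 2), a fitted 4.72-fold lower level (log2 fold change -2.24, SE 0.32). In that comparison it was the closest of the 10 genes to the threshold (edgeR adjusted p = 0.0576). ITGB4-high cells were 21.6-fold lower than control (log2 fold change -4.43, SE 0.56), which also missed it (edgeR adjusted p = 0.0608). With the clone as a replicate block, in which the ITGB4-high library, which has no clone, was set midway between clones 1 and 3, that difference passed (edgeR adjusted p = 0.0281), as did 363 genes in all against 14 without the block. Between lung and ITGB4-high cells, the lung level was 4.57-fold higher (log2 fold change 2.19, SE 0.52) and did not pass (edgeR adjusted p = 0.128).

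Summed per kb of exon, the 3 collagen-binding alpha subunits came to 111, 26.9 and 66.2 CPM per kb in LM2 clone 1, LM2 clone 3 and bleomycin clone 1 and 123 CPM per kb in ITGB4-high cells, against 16.9 and 17.6 CPM per kb in controls. ITGA2 made up 99.1%, 89.7% and 96.6% of this sum in those lung libraries and 98.9% in ITGB4-high cells, against 54.1% and 51.8% in control clones 1 and 3. In the controls the 3 subunits thus shared the sum, with ITGA1 at 22.6% and 22.7% and ITGA11 at 23.3% and 25.4%. The ratio of ITGA2 to ITGA1, both per kb, was 223, 13.8 and 56.5 in the lung libraries and 102 in ITGB4-high cells, against 2.40 and 2.28 in controls. Shares and ratios between genes rest on the merged exon lengths, 7910 bases for ITGA2 and 18566 bases for ITGA1. Without this division, ITGA2 was at 72.3 CPM in each control, beside ITGA1 at 70.8 and 74.5 CPM. ITGA10, the remaining alpha subunit that binds collagen and no member of the 10, took 6.33% to 10.8% of a sum that includes it in the lung libraries and 8.57% in ITGB4-high cells, against 41.1% and 41.4% in controls. ITGA10 did not pass in the lung libraries over control (log2 fold change -0.98, edgeR adjusted p = 0.252), and with it counted ITGA2 still held 81.0% to 92.8% in the lung libraries and 90.4% in ITGB4-high cells, against 30.5% and 31.7% in controls.

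**Figure D1:**
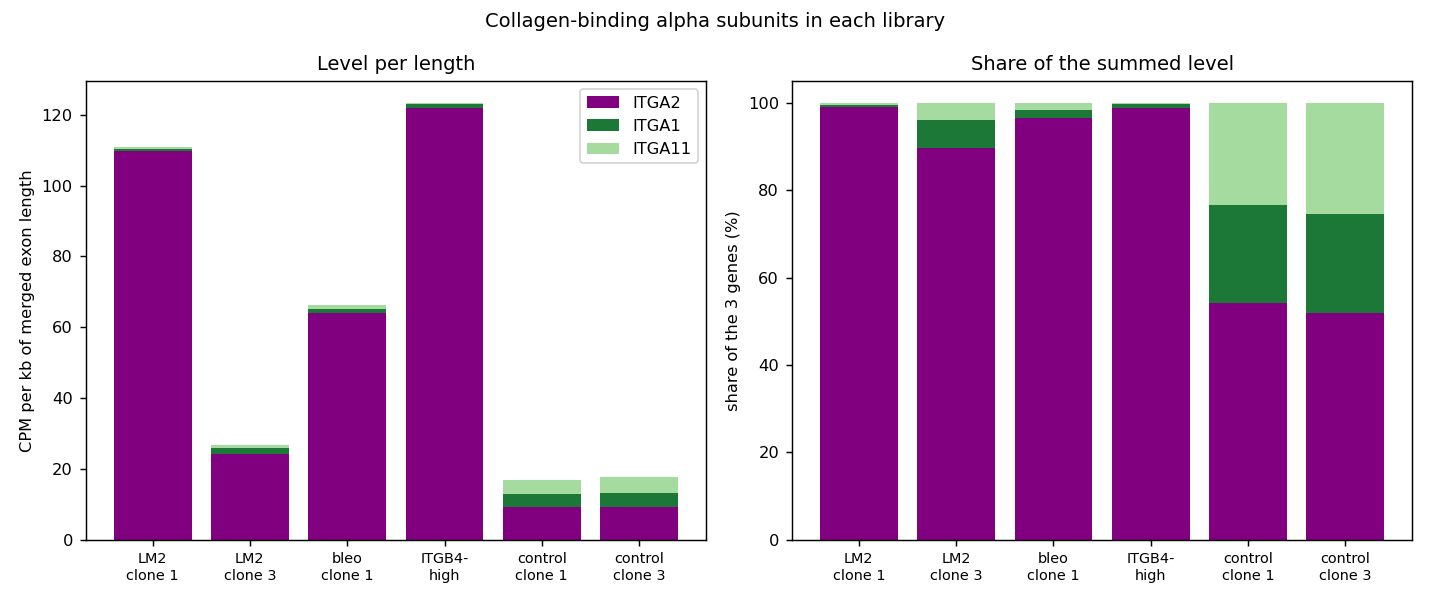
Level in CPM per kb of merged exon length (left) and share in percent (right) of the 3 collagen-binding alpha subunits, 1 bar per library. ITGA2 holds 89.7% to 99.1% of the sum in the lung libraries and 98.9% in ITGB4-high cells, against 51.8% and 54.1% in the controls.

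Of the alpha subunits that bind laminin and fibronectin, both were at their lowest in the controls, but differed by less than ITGA2. ITGA3 (ENSG00000005884, chr17:50055968-50090481, plus strand) encodes the alpha subunit of the laminin receptor outside hemidesmosomes. It was at 420.2 and 271 CPM in clones 1 and 3 with LM2, 342 CPM in the bleomycin library and 735 CPM in ITGB4-high cells, against 206 and 227 CPM in control clones 1 and 3. ITGB4-high cells stood highest, and the lung libraries lay between them and the controls without overlap. The lung libraries were 1.59-fold above control (log2 fold change 0.67, SE 0.21, edgeR adjusted p = 0.17), and ITGB4-high cells were 3.39-fold above it (log2 fold change 1.76, SE 0.29, adjusted p = 0.0704). The lung libraries were 2.13-fold below ITGB4-high cells (log2 fold change -1.09, SE 0.24, edgeR adjusted p = 0.119). None of these passed.

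ITGA5 (ENSG00000161638, chr12:54395261-54419460, minus strand) encodes the alpha subunit of the classical fibronectin receptor. Its levels were 254 and 154 CPM in clones 1 and 3 with LM2, 228 CPM in the bleomycin library and 209 CPM in ITGB4-high cells, against 151 and 150.5 CPM in control clones 1 and 3. LM2 clone 3 was nearly level with its control, at a log2 ratio of 0.03, and the clone 1 lung libraries were at 0.75 and 0.59. ITGA5 had the narrowest range of the 10, 0.75 on the log2 scale over the 6 libraries. The fitted log2 fold change of all lung libraries over control was 0.49 with a standard error of 0.22 and did not pass (edgeR adjusted p = 0.28).

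**Figure D2:**
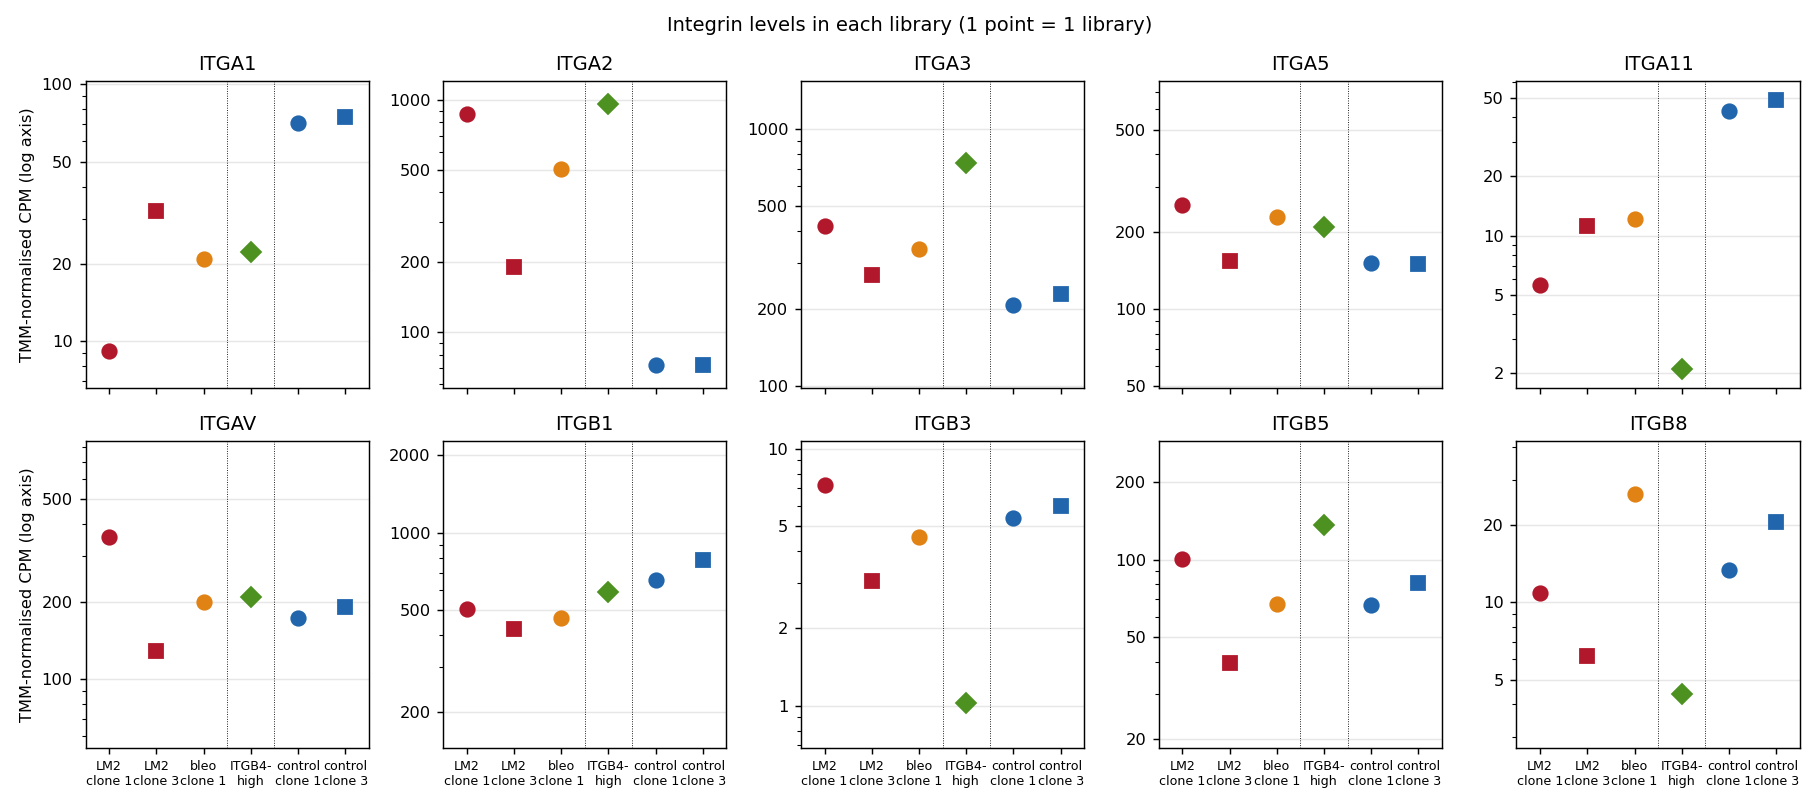
TMM-normalised CPM of each of the 10 integrin genes on log axes, 1 point per library, with the LM2 and bleomycin lung libraries left of ITGB4-high cells and the controls at the right. ITGA2, ITGA3 and ITGA5 lie above both controls in all 3 lung libraries, and ITGA1, ITGA11 and ITGB1 lie below both.

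ITGB1 (ENSG00000150093, chr10:32900319-33005792, minus strand), the partner of each of the alpha subunits described above, was the most abundant of the 4 beta subunits described here in every library. It was at 507 and 424 CPM in clones 1 and 3 with LM2, 464 CPM in the bleomycin library and 586 CPM in ITGB4-high cells, against 655 and 784 CPM in control clones 1 and 3. Its levels were below both controls in all of these libraries, at the lowest in LM2 clone 3. The lung libraries averaged 465 ± 41.9 CPM (SD, n = 3) and the controls 719.8 ± 91.3 CPM (SD, n = 2). The fitted log2 fold change was -0.63 with a standard error of 0.15 and did not pass (edgeR adjusted p = 0.12). The 6 alpha subunits summed per kb stood at 2.73, 1.28 and 2.01 times the ITGB1 level in LM2 clone 1, LM2 clone 3 and bleomycin clone 1 and 2.58 times in ITGB4-high cells, against 0.724 and 0.642 times in control clones 1 and 3. RNA levels per kb do not give the number of subunits at the surface.

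Per kb of exon, ITGB1 came first of the 10 in LM2 clone 3, the bleomycin library and both controls, and ITGA2 came first in LM2 clone 1 and ITGB4-high cells. In the controls the order was ITGB1 at 109 and 130.5 CPM per kb, then ITGA3, ITGAV and ITGA5 between 19.9 and 23.2, then ITGB5 at 10.3 and 12.5. After these came ITGA2 at 9.14 in each control, ITGA11 and ITGA1 between 3.81 and 4.49, and ITGB3 and ITGB8 between 0.881 and 1.36 CPM per kb. Over the controls, the range of ITGA3 overlapped that of ITGAV, ITGA11 that of ITGA1, and ITGB3 that of ITGB8. Within each control ITGA11 lay above ITGA1 and ITGB3 above ITGB8, while ITGA3 and ITGAV changed order. These differences between genes were not tested. In the lung libraries ITGA2 spanned 24.1 to 110 CPM per kb and overlapped ITGB1 (70.5 to 84.4), ITGA3 (27.6 to 42.9), ITGA5 (20.3 to 33.5) and ITGAV (15.6 to 43.4). ITGB5 lay at 6.13 to 15.6 CPM per kb in the lung libraries, and ITGA1, ITGA11, ITGB3 and ITGB8 lay between 0.409 and 1.74.

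ITGAV, ITGB3, ITGB5 and ITGB8 had no common direction in the lung libraries, and all 4 overlapped the controls. ITGAV (ENSG00000138448, chr2:186590065-186680901, plus strand) was at 356 and 128 CPM in clones 1 and 3 with LM2, 199 CPM in the bleomycin library and 209 CPM in ITGB4-high cells, against 173 and 189.9 CPM in control clones 1 and 3. LM2 clone 1 was the highest of the 6 libraries and LM2 clone 3 the lowest. The fitted log2 fold change of all lung libraries over control was 0.33 (SE 0.41, edgeR adjusted p = 0.676), and without the LM2 clone 1 library it was -0.15.

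ITGB5 (ENSG00000082781, chr3:124761948-124901418, minus strand), whose product forms a vitronectin receptor with ITGAV, was at 100.5 and 39.5 CPM in clones 1 and 3 with LM2, 67.1 CPM in the bleomycin library and 136 CPM in ITGB4-high cells, against 66.5 and 80.8 CPM in control clones 1 and 3. As with ITGAV, LM2 clone 1 lay above both controls and LM2 clone 3 below both. The fitted log2 fold changes were -0.09 (SE 0.37, edgeR adjusted p = 0.904) for all lung libraries over control and 0.88 (SE 0.54, adjusted p = 0.367) for ITGB4-high cells over control. Without the LM2 clone 3 library, the lung difference was 0.20. In ITGB4-high cells the 115 tested genes within 10 Mb of ITGB5 also lay above control, by a median of 0.36 on the log2 scale, and whether this bears on ITGB5 was not tested.

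ITGB3 (ENSG00000259207, chr17:47253846-47311816, plus strand), known from the platelet fibrinogen receptor and from osteoclasts, was scarce in these counts. It was at 7.20 and 3.06 CPM in clones 1 and 3 with LM2, 4.54 CPM in the bleomycin library and 1.02 CPM in ITGB4-high cells, against 5.39 and 5.97 CPM in control clones 1 and 3. The lung libraries lay on both sides of the controls, and ITGB4-high cells, with 14 counts, lay below every other library. ITGB4-high cells were 5.54-fold lower than control (log2 fold change -2.47, SE 0.69, edgeR adjusted p = 0.131), and lung cells were 4.79-fold higher than ITGB4-high cells (log2 fold change 2.26, SE 0.61, adjusted p = 0.153). Neither passed. AC068234.1 shares 2266 of the 4394 merged exon bases of ITGB3 on the same strand and was at 0 CPM in every library. Reads from those bases may have been lost, so the counts and the level per kb of ITGB3 may be too low.

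ITGB8 (ENSG00000105855, chr7:20330702-20415754, plus strand), whose product with ITGAV binds and activates latent TGF-beta, was at 10.8 and 6.19 CPM in clones 1 and 3 with LM2, 26.3 CPM in the bleomycin library and 4.37 CPM in ITGB4-high cells, against 13.3 and 20.4 CPM in control clones 1 and 3. The bleomycin library was above both controls and both LM2 libraries were below both, the only gene of the 10 with that order. The bleomycin library was 3.10-fold above the LM2 libraries (log2 fold change 1.63, SE 0.43), which did not pass (edgeR unadjusted p = 0.0143, adjusted p = 0.926). ITGB4-high cells were 3.86-fold below control (log2 fold change -1.95, SE 0.51, edgeR adjusted p = 0.117).

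Among ITGB3, ITGB5 and ITGB8, ITGB5 held 86.9%, 84.7% and 79.0% of the level per kb in LM2 clone 1, LM2 clone 3 and bleomycin clone 1 and 97.6% in ITGB4-high cells, against 83.0% and 82.2% in control clones 1 and 3. ITGB8 held 13.2% in the bleomycin library and 1.34% in ITGB4-high cells, against 7.09% and 8.85% in controls. ITGB5 was thus the highest of ITGB3, ITGB5 and ITGB8 in every library, with the largest share in ITGB4-high cells. ITGB1, which is not in this sum, was at 70.5 to 130.5 CPM per kb over the 6 libraries. RNA shares do not show which beta subunit ITGAV pairs with, and the ITGB3 share is subject to the shared exon bases named above.

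**Figure D3:**
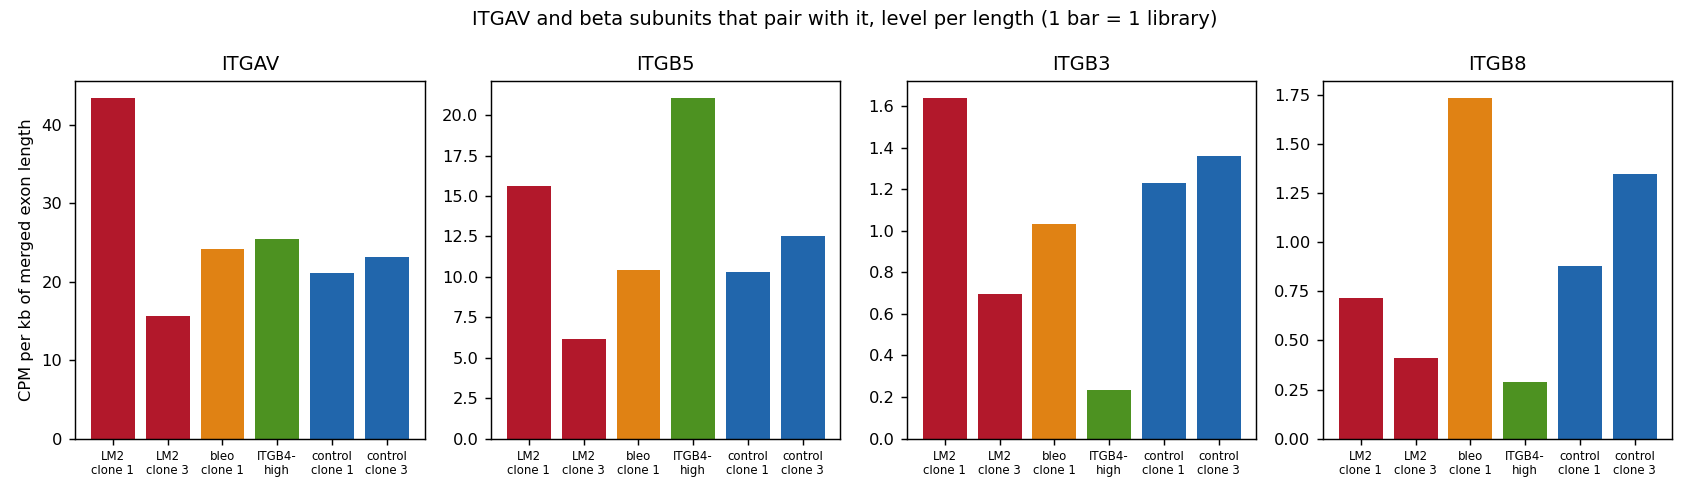
Level in CPM per kb of merged exon length of ITGAV, ITGB5, ITGB3 and ITGB8, 1 bar per library, each gene on its own axis from 0. ITGAV and ITGB5 are highest and lowest among the lung libraries in LM2 clones 1 and 3, and ITGB8 is highest in the bleomycin library at 1.74 CPM per kb.

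Against the control of its own clone, the median log2 ratio of the 10 genes was 0.50 for LM2 clone 1, -0.91 for LM2 clone 3 and 0.11 for bleomycin clone 1, while the median of all tested genes was between -0.04 and -0.02. Of the 10 genes, 6 lay above the control of their clone with LM2 and 6 with bleomycin in clone 1, and 3 did so with LM2 in clone 3. LM2 clone 3 had a lower ratio than LM2 clone 1 for every gene except ITGA1 and ITGA11. In ITGB4-high cells, 5 of the 10 lay above both controls and 5 below both, where 43.6% and 45.2% of all tested genes did so. The median log2 ratio to the mean control was -0.04, beside -0.01 over all tested genes. ITGA11 had the widest range over the 6 libraries, 4.45 on the log2 scale, followed by ITGA2 at 3.74 and ITGA1 at 3.01.

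**Figure D4:**
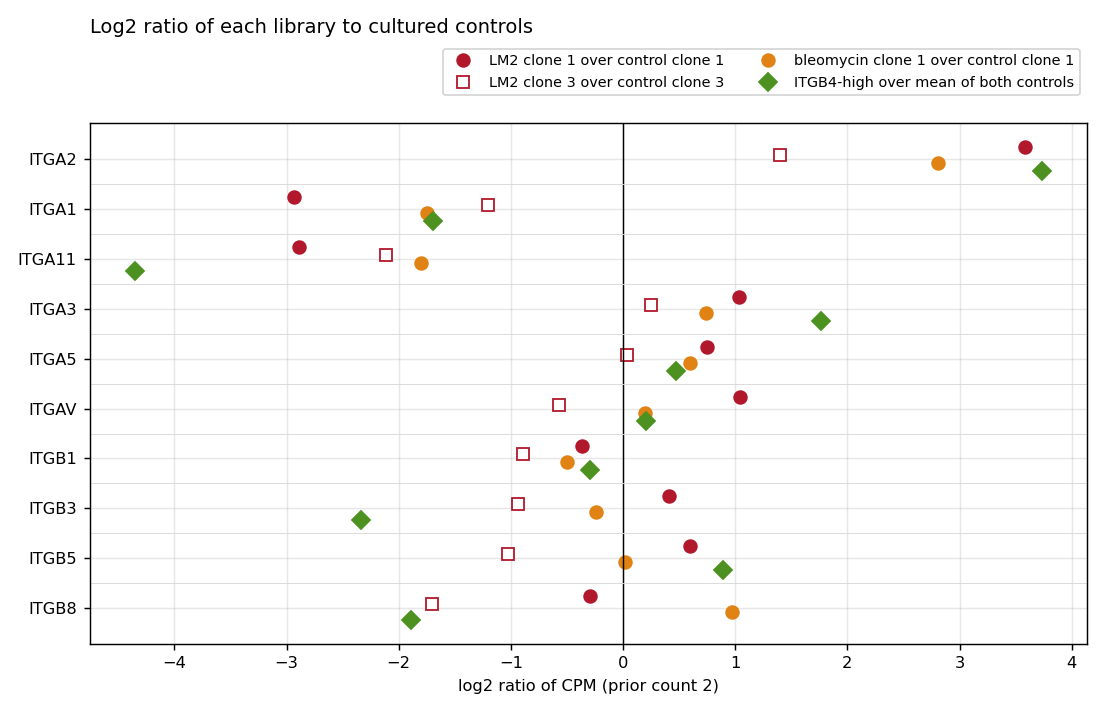
Log2 ratio of CPM (prior count 2) for the 10 integrins in each lung library over the control of its own clone and in ITGB4-high cells over the mean of both controls, 1 point per library. ITGA2, ITGA3 and ITGA5 lie above 0 and ITGA1, ITGA11 and ITGB1 lie below 0 in all 4 libraries, while ITGAV, ITGB3, ITGB5 and ITGB8 lie on both sides.

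All 3 lung libraries lay on one side of both controls for 6 of the 10 integrins, 3 above and 3 below, and 45.9% of all 15673 tested genes did so. None of the 10 passed edgeR's test at an adjusted p of 0.05 in all lung cells over control, where 0.498% of the tested genes passed, and 5 had an unadjusted p under 0.05, beside 20.5% of all genes. DESeq2 called 4 of the 10 in this comparison (ITGA1, ITGA2, ITGA11 and ITGB1) and limma-voom 1 (ITGA11), while they called 1263 and 97 genes in all. Without the LM2 clone 1 library edgeR called ITGA1 and ITGA11, and without the LM2 clone 3 library ITGA1, ITGA2 and ITGA11. The calls over all genes were then 393 (2.5%) and 1012 (6.55%), against 78. The median fitted log2 fold change of the 10 was -0.15, beside 0.00 over all tested genes.

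For LM2 lung cells over control, edgeR passed 0 of 10 (0.0319% of all genes), with 6 at an unadjusted p under 0.05 (15.6% of all genes), and DESeq2 called 3 (ITGA1, ITGA2 and ITGA11; 4.13% of all genes) and limma-voom 0. For the bleomycin library over control, edgeR passed 0 of 10 (0.0255% of all genes), with 3 at an unadjusted p under 0.05 (14.5% of all genes), and DESeq2 called 1 (ITGA11; 3.68% of all genes) and limma-voom 0. The fitted log2 fold change of ITGA2 over control was 2.81 (SE 0.82) for bleomycin and 2.87 (SE 0.74) for LM2. The LM2 value averages clones that were 12.0-fold and 2.63-fold above their controls, and bleomycin over LM2 was 1.41 without the LM2 clone 1 library and -0.79 without the LM2 clone 3 library. ITGA11 was at -1.91 (SE 0.46) for bleomycin and -2.44 (SE 0.36) for LM2. Both comparisons share the 2 control libraries.

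For ITGB4-high cells over control, edgeR passed 0 of 10 (0.0893% of all genes), with 5 at an unadjusted p under 0.05 (24.5% of all genes). There DESeq2 called 5 (ITGA2, ITGA3, ITGA11, ITGB3 and ITGB8; 9.63% of all genes) and limma-voom 0. For lung cells over ITGB4-high cells, edgeR passed 0 of 10 (0.108% of all genes), with 3 at an unadjusted p under 0.05 (18.3% of all genes). There DESeq2 called 3 (ITGA3, ITGA11 and ITGB3; 6.93% of all genes) and limma-voom 0. For the bleomycin library over the LM2 libraries edgeR passed 0 of 10 (0% of all genes), with 1 at an unadjusted p under 0.05, beside 4.61% of all genes, and DESeq2 and limma-voom called 0. There edgeR called 6 of the 10 without the LM2 clone 1 library (7.42% of all genes) and 6 without the LM2 clone 3 library (19.2%). For lung cells over ITGB4-high cells it called 2 without the LM2 clone 1 library (9.1% of all genes) and 0 without the LM2 clone 3 library (0.239%). Leaving out the LM2 clone 1 library, edgeR called 7 of the 10 for LM2 cells (11.6% of all genes), 6 for the bleomycin library (28.1%) and 8 for ITGB4-high cells (42%), each over control. Leaving out the LM2 clone 3 library, it called 8 for LM2 cells (40.8% of all genes), 6 for the bleomycin library (27.2%) and 8 for ITGB4-high cells (41.6%).

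**Figure D5:**
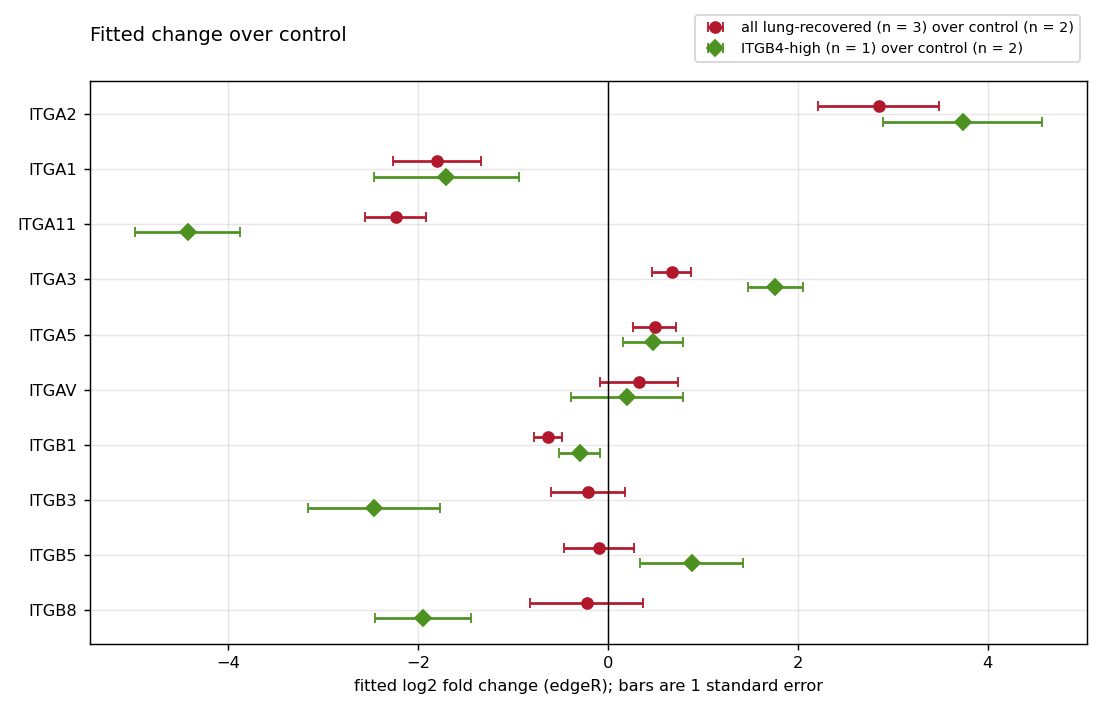
Log2 fold change fitted by edgeR for the 10 integrins in all lung libraries (n = 3) and in ITGB4-high cells (n = 1), each over control (n = 2), with bars of 1 standard error. ITGA2 stands farthest to the right at 2.85 and 3.74, ITGA11 farthest to the left at -2.24 and -4.43, and none of the differences shown passed the adjusted threshold.

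The genes whose profile over the 6 libraries lay nearest to that of a collagen-binding subunit were sought among 10234 protein-coding genes by the root mean square difference of centred log2 CPM. Nearest to ITGA2 were BCAR3, an adaptor that binds p130Cas at adhesions, at 0.147, and SMOC1, a secreted calcium-binding matrix protein, at 0.233, where the median gene was at 1.57. BCAR3 was at 122 and 24.9 CPM in clones 1 and 3 with LM2, 70.0 CPM in the bleomycin library and 126 CPM in ITGB4-high cells, against 12.1 and 11.8 CPM in controls. Nearest to ITGA11 were ADD3, an adducin of the membrane skeleton, at 0.258, and PLEKHA6 at 0.315. Nearest to ITGA1 were TMEM14A at 0.167 and TLE6 at 0.170. The 6 libraries share clones and culture, so these are descriptions of likeness.

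Of the other 16 integrin genes, 7 were tested. ITGB4 rose in lung cells over control (log2 fold change 4.01, SE 0.25, edgeR adjusted p = 0.0116) and ITGA6, its partner, did not pass (log2 fold change 1.32, SE 0.25, adjusted p = 0.0808). Among the ligands, all 10 collagen genes were tested and none passed in lung cells over control, with a median log2 fold change of 0.58, 4 at an unadjusted p under 0.05, and 4 called by DESeq2 and 0 by limma-voom. None of the 10 laminin genes passed edgeR's test either, with a median of 0.46, 5 at an unadjusted p under 0.05, and 3 called by DESeq2 and 0 by limma-voom. Medians of these lists stand beside 0.00 over all tested genes. Of all tested genes in lung cells over control, 0.498% passed edgeR's test and 20.5% had an edgeR unadjusted p under 0.05. DESeq2 called 8.06% of them and limma-voom 0.619%. In ITGB4-high cells over control the collagen genes had a median of -1.69, with 9 of 10 below 0, and the laminin genes a median of -0.20. Over all tested genes there, the median was -0.01 and 48.9% were above 0. In lung cells over ITGB4-high cells the collagen median was 3.12, beside 0.04 over all tested genes. Of the 13 tested genes for RGD and related matrix ligands, CCN2, a matricellular target of YAP and TGF-beta, fell in lung cells over control. It was at 29.6 CPM in clone 1 and 33.5 CPM in clone 3 of the LM2 group and 15.7 CPM in the bleomycin library, against 163 and 269 CPM in controls (log2 fold change -3.04, edgeR adjusted p = 0.0461). The remaining 12 did not pass edgeR's test. The list's median log2 fold change was -0.77, with 8 of the 13 at an unadjusted p under 0.05, 6 called by DESeq2 and 1 by limma-voom. The CCN2 call was lost without the bleomycin library, without LM2 clone 1 and without either control, with an adjusted p of up to 0.45.

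Of the 7 tested genes for latent TGF-beta, the cargo of ITGAV receptors, TGFB2 fell in lung cells over control (log2 fold change -1.94, edgeR adjusted p = 0.0209) and in ITGB4-high cells over control (-5.20, adjusted p = 0.0277). TGFB2 was at 30.3 and 31.4 CPM in clones 1 and 3 with LM2, 39.2 CPM in the bleomycin library and 3.50 CPM in ITGB4-high cells, against 118 and 140 CPM in controls. In lung cells over ITGB4-high cells, 4 of the 7 genes were above 0, and TGFB2 alone passed edgeR's test (log2 fold change 3.26, edgeR adjusted p = 0.039), while DESeq2 called 2 and limma-voom 0. Over all tested genes there, 53.0% were above 0, and edgeR called 0.108%, DESeq2 6.93% and limma-voom 0.0957%. FBN1, a microfibril protein with an RGD motif, fell in ITGB4-high cells, to 3.64 CPM against 42.9 and 48.9 CPM in controls (log2 fold change -3.65, edgeR adjusted p = 0.0414). For ITGB4-high cells over control, DESeq2 called 6 of the 13 RGD and related ligand genes and limma-voom 0. Of the 7 latent TGF-beta genes DESeq2 called 1 there and limma-voom 0. Over all tested genes in that comparison edgeR called 0.0893%, DESeq2 9.63% and limma-voom 0.0128%. Of 32 tested focal adhesion adaptors none passed in lung cells over control (median -0.16, 11 at an unadjusted p under 0.05, 6 called by DESeq2 and 0 by limma-voom). Of 14 membrane partners none passed (median 0.14, 5 at an unadjusted p under 0.05, 2 called by DESeq2 and 0 by limma-voom). Over all tested genes in lung cells over control, 20.5% had an edgeR unadjusted p under 0.05, and DESeq2 called 8.06% and limma-voom 0.619%. Calls of ITGB4, TGFB2 and FBN1 were lost without either control, with adjusted p-values of up to 0.629, and both lung comparisons of TGFB2 also without the bleomycin library.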

How the data were processed

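Poly(A) RNA of 6 SUM159 libraries was made into strand-marked libraries, per the labels' protocols, and reads were aligned to hg38 by STAR 2.7.1a, according to the submitters' processing notes. The authors deposited whole, unnormalised read counts for each gene. For the counter, the annotation and the strand setting, a statement was not given in the sources used here. Of 58336 genes, 58216 identifiers matched GENCODE 29 and 120 did not.

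Counts were tested with edgeR 4.0.16 in R 4.3.3: TMM factors, filterByExpr at a minimum count of 10 (15673 genes), robust quasi-likelihood fits and Benjamini-Hochberg adjustment over these genes, threshold 0.05. A fit of 3 classes (lung, ITGB4-high, control; 3 residual degrees of freedom) served all lung cells, and a fit of 4 groups (2 residual degrees of freedom) the rest. Groups of 1 library take their spread from the others, and every comparison with control uses the same 2 controls. Nothing states that libraries came from separate animals, so p-values measure only how far these libraries spread, which may be technical. The code was tested on simulated data. In bulk RNA, fewer cells with a transcript and less RNA per cell cannot be told apart. Alternatives were DESeq2 1.42.0 and limma-voom (limma 3.58.1), RLE factors, no filter, a replicate block by clone and leaving out each library. The clone number pairs libraries of the same clone, per their titles; over 15673 genes the clone deviations of LM2 and control correlated at 0.00115.

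Levels are CPM from these counts, ratios use a prior count of 2, and levels of different genes are compared per kb of merged exon. Promoters came from RefSeq (GRCh38.p14), which matched 8 of the 10. All 10 genes are named. Of each list, up to 4 genes that passed are named. Nearest profiles were sought among tested protein-coding genes with a mean log2 CPM of 2 or more, 2 for each of the 3 members with the widest range. The members, gene lists and tests were chosen with earlier results of these data known.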

Additional observations from a re-analysis of the deposited data

Results flagged for a closer look

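ITGAV and ITGB5 had log2 ratios above 0 in the clone 1 lung libraries and below 0 in the clone 3 library. For ITGAV the log2 ratio to the control of the same clone was 1.04 in LM2 clone 1 and 0.20 in bleomycin clone 1, but -0.57 in LM2 clone 3. For ITGB5 it was 0.60 in LM2 clone 1 and -1.03 in LM2 clone 3, and at 0.015 the bleomycin clone 1 library was level with its control. Clone 3 had 1 lung library, and the difference between clones was not tested.

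ITGB8 had a log2 ratio above 0 in the bleomycin library and below 0 in both LM2 libraries. Its log2 ratio to the control of the same clone was 0.97 in bleomycin clone 1, but -0.30 in LM2 clone 1 and -1.70 in LM2 clone 3. The difference between the bleomycin and LM2 libraries was tested and did not pass (log2 fold change 1.63, edgeR adjusted p = 0.926).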

How the results depend on the processing

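Counts of the 10 genes called differed between settings, against 0 in every comparison of the main test, and the cause was not tested. For lung cells over control they were 4 with no filter, 4 with DESeq2, 1 with limma-voom and 0 to 3 when 1 library was left out. For LM2 cells over control they were 4 with no filter, 3 with DESeq2 and 0 to 8 with 1 library left out. For the bleomycin library over control they were 1, 1 and 0 to 6 in the same order, and for lung over ITGB4-high cells 4, 3 and 0 to 2. For ITGB4-high cells over control they were 4 with no filter, 5 with DESeq2, 1 with the replicate block and 0 to 8 with 1 library left out. For bleomycin over LM2 they were 1 with no filter and 0 to 6 with 1 library left out. Without either control no gene of the table passed, and without either LM2 library the fits of 4 groups take their spread from the control pair alone. The numbers of genes that passed over the whole table were 1263 (DESeq2), 97 (limma-voom), 39 (replicate block), 79 (RLE) and 2152 (no filter) for lung over control, against 78, and 1510, 2, 363, 74 and 2707 for ITGB4-high over control, against 14. With no filter 33274 genes were tested, against 15673 in the main test. Of the 33274, 6.47% were called for lung, 5.25% for LM2, 4.3% for bleomycin and 8.14% for ITGB4-high cells, each over control. The shares were 4.23% for lung over ITGB4-high cells and 0.709% for bleomycin over LM2.

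Directions reversed in 32 of 620 fits of single members. RLE factors, DESeq2 and no filter reversed none. With the replicate block, the log2 fold change was -0.26 for ITGAV in the bleomycin library over control, and -0.068 for ITGA5 and -0.035 for ITGAV in lung over ITGB4-high cells. With limma-voom it was -0.014 for ITGA5 and -0.0028 for ITGAV in lung over ITGB4-high cells, and 0.31 for ITGA2, 0.021 for ITGA3, 0.0024 for ITGB1 and 0.11 for ITGB5 in bleomycin over LM2. The cause was not tested.

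With 1 library left out, the log2 fold changes of lung cells over control ran from -0.15 to 0.62 for ITGAV, -0.47 to 0.20 for ITGB5, -0.99 to 0.15 for ITGB8 and -0.58 to 0.053 for ITGB3. For LM2 cells over control they ran from -0.51 to 0.99 for ITGAV, -0.90 to 0.46 for ITGB5 and -0.89 to 0.35 for ITGB3, and for the bleomycin library over control from -0.25 to 0.012 for ITGB5. For lung over ITGB4-high cells they ran from -0.13 to 0.23 for ITGA5, -0.54 to 0.26 for ITGA1 and -0.35 to 0.43 for ITGAV. For bleomycin over LM2 they ran from -0.62 to 1.19 for ITGA1, -0.79 to 1.41 for ITGA2, -0.30 to 0.34 for ITGA3, -0.85 to 0.64 for ITGAV, -0.13 to 0.14 for ITGB1, -0.67 to 0.57 for ITGB3, -0.59 to 0.77 for ITGB5 and -0.16 to 0.57 for ITGA5. ITGA1, ITGA2, ITGA3, ITGA5, ITGA11 and ITGB1 kept their direction over control with every library left out. Depth limits ITGB3 and ITGA11 in ITGB4-high cells, at 14 and 29 counts.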
